A study of Sus scrofa with 18 samples.

Results

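Forkhead box (FOX) genes encode transcription factors that bind DNA through a winged-helix forkhead domain. They were taken from the table of pig genes by name, as every gene called FOX followed by a letter from A to S and a number, which gave 40 of 20983 genes. Genes listed under an ID only could not be reached by this rule, and 2 of these, FOXO3 and FOXB2, were forkhead genes according to the reference table of gene names. Every embryo was a pig parthenote, made by chemical activation of an oocyte without sperm, so that no paternal genome was present. Oocytes came from slaughterhouse ovaries of immature gilts. They were matured with their cumulus cells either in DMEM, supplemented with gonadotropins, EGF, IGF1 and FGF, or in FLI, a TCM 199 based medium with the same gonadotropins, EGF, FGF2, LIF and less IGF1 than in DMEM. The media therefore differed in several components, whose parts in a difference cannot be told apart. The cumulus cells were then removed and all embryos were cultured in the same zygote medium. The 6 groups were 2-cell DMEM, 2-cell FLI, 4-cell DMEM, 4-cell FLI, 8-cell DMEM and 8-cell FLI embryos. Each group had 3 libraries of total RNA from pooled embryos, 18 in all. The labels call the libraries replicates and do not say whether they came from separate collections of ovaries, so the tests measure the spread between these pools.

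As background, forkhead factors are grouped into lettered subfamilies with different roles. FOXO factors are held out of the nucleus when insulin, IGF1 and other growth factors activate the kinase AKT, and they act on genes of metabolism, stress resistance and cell cycle arrest. FOXM1 drives genes of the G2 and M phases, FOXH1 joins SMAD proteins to answer Nodal and activin, FOXK and FOXP factors act largely as repressors, and FOXA factors can bind closed chromatin in endoderm. In the early pig embryo the maternal RNA of the oocyte is degraded while transcription of the embryonic genome begins, which in this species is placed at about the 4-cell stage.

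Count totals ranged from 1737985 to 6781185 per library, and 3 counts, the most that a count of 0 allows, corresponded to 0.442 to 1.73 CPM, that is counts scaled to a common library total. Of the 11 oocyte and early embryo markers in the table, the summed level was 6902 to 7539 CPM in the 6 2-cell libraries and 349 to 4379 CPM in the 12 later ones. Of 17 cumulus and granulosa markers, 15 were in the table and summed to 41.1 to 53.3 CPM at the 2-cell, 329 to 441 CPM at the 4-cell and 170.3 to 260 CPM at the 8-cell stage. Most of the later sum was NR5A2, which embryos also express and which rose from means of 0.656 and 0.286 CPM (DMEM and FLI) to 343 and 337 CPM at the 4-cell stage. The 4 blood markers in the table summed to 0.672 to 3.46 CPM at the 2-cell, 8.65 to 30.2 CPM at the 4-cell and 1.47 to 13.9 CPM at the 8-cell stage, and the 6 fibroblast and stroma markers to 5.44 to 7.79, 11.7 to 29.3 and 5.79 to 22.6 CPM. The 8-cell libraries were the most uneven, and 3 of them stood apart from the rest. The 8-cell DMEM library 1 had the fewest counts and 2586 CPM of oocyte markers. The 8-cell FLI library 2 had 4379 CPM of oocyte markers, more than any 4-cell library. In the 8-cell FLI library 3 only 21.4% of the mapped reads, as inferred from the deposited values, were counted in genes, and 18595 genes had at least 1 count. The counts of forkhead genes that passed in comparisons with the 8-cell stage are therefore given with and without these libraries. Levels, estimates of the medium difference and results on gene lists are given with all libraries.

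Between 26 and 37 of the 40 forkhead genes had at least 1 count in a library, and between 14 and 22 had at least 10. The library with the most, 37, was the 8-cell FLI library 3, which also had the most genes of any kind with a count. In all, 26 forkhead genes passed the filter on low counts and were tested, and 14 did not. A gene could pass through the groups in which it was high.

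Per length, the forkhead transcripts of 2-cell embryos were mostly those of FOXR1 and FOXK2, and those of 4-cell embryos were led by FOXI3. In TPM, which scale for gene length as well as for the library, the 40 genes summed to 1360 ± 97.6 (SD, n = 3) with DMEM and 1399 ± 56.8 with FLI at the 2-cell stage. The sum was 902 ± 17.7 TPM in 4-cell DMEM, 1013 ± 58.7 in 4-cell FLI, at the 8-cell stage 775 ± 72.1 with DMEM and 957 ± 270.0 with FLI. At the 2-cell stage FOXR1 gave 36.9% of the sum of means with DMEM and 40.3% with FLI, at 501 ± 70.8 and 564 ± 28.0 TPM. FOXK2 followed with 21.2% and 20.2%, then FOXM1 with 10.6% and 9.57%. At the 4-cell stage FOXI3 gave 22.7% in DMEM and 22.5% in FLI embryos, at 205 ± 55.6 and 228 ± 23.5 TPM, while it had been at 12.3 ± 1.01 and 12.9 ± 2.06 TPM at the 2-cell stage. FOXI3 also led the 8-cell DMEM embryos with 21.98%. In the 8-cell FLI embryos the mean put FOXR1 first, with 17.9% against 16.8% for FOXI3, and the median put FOXI3 first, because FOXR1 was high in library 2 alone. FOXM1 gave 9.57% to 11.2% in every group. TPM serve here to compare genes within a group, and changes between stages can differ in the CPM used for the tests. From the 2-cell to the 4-cell stage in DMEM embryos, FOXM1 went from 144 to 101 TPM but from 144 to 140 CPM. FOXJ3 went from 49.5 to 53.9 TPM but from 111 to 167 CPM.

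**Figure D1:**
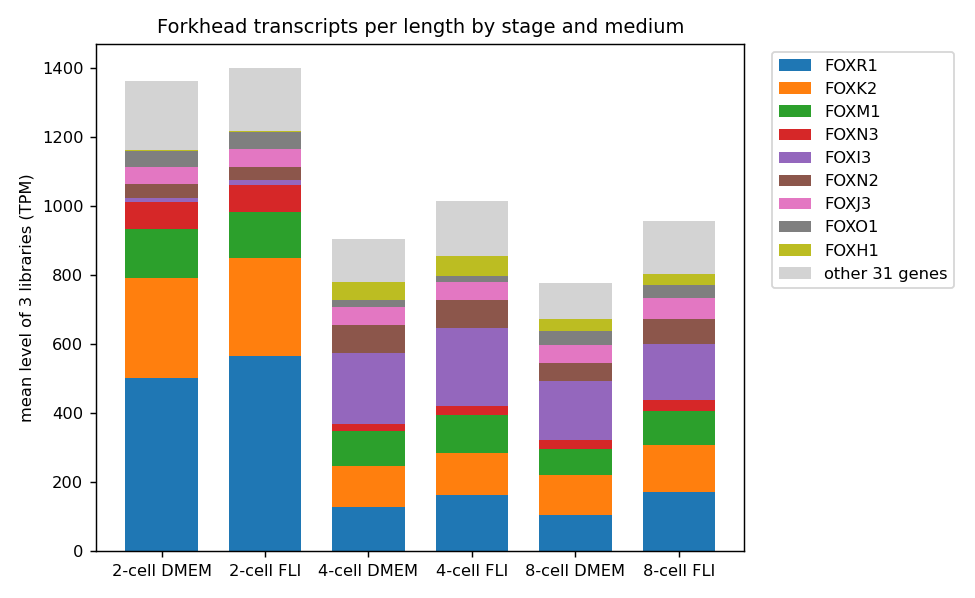
Stacked bars of the mean level of the forkhead genes in TPM (vertical axis, from 0) in the 6 groups, each a mean of 3 libraries, with 9 genes in colour and the other 31 in grey. The FOXR1 block shrinks from 501 and 564 TPM at the 2-cell stage to 126 and 161 TPM at the 4-cell stage, and the FOXI3 block grows from 12.3 and 12.9 to 205 and 228 TPM. Changes between stages can differ in CPM, in which FOXR1 went from a mean of 171 to 59.6 in DMEM embryos.

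The 4-cell stage was compared with the 2-cell stage in each medium, which covers the time in which maternal RNA is lost and the embryonic genome becomes active. Of the 26 genes tested, 7 rose and 6 fell in DMEM embryos, and 7 rose and 6 fell in FLI embryos, at an adjusted p under 0.05. FOXO1 is among the 6 in each medium, and since its low level at the 4-cell stage was known when the genes were chosen, the count without it was 7 higher and 5 lower of 25 in each medium. Among all 13187 genes tested, 35.2% rose and 28.4% fell in DMEM embryos, and 34.6% rose and 27.2% fell in FLI embryos, which together are 63.6% and 61.9% of genes beside 12 of 25 forkhead genes in each medium. The median log2 fold change of the 26 was 0.01 in DMEM and 0.08 in FLI embryos, beside 0.16 and 0.18 over all genes. These are levels relative to the other RNA of a library, and a loss of other transcripts and a gain of this one cannot be told apart in them.

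FOXI3, which is known for its part in ectodermal and pharyngeal arch development, rose with the smallest adjusted p of the 26. The gene lies on chromosome 3 (57586485 to 57590344, plus strand, Sscrofa11.1). Its level, scaled by trimmed mean of M values (TMM), was 4.98, 5.57 and 4.85 CPM in the 2-cell DMEM libraries and 6.01, 5.54 and 4.44 CPM in the 2-cell FLI libraries. In the 4-cell stage it was 159, 99.0 and 97.3 CPM with DMEM and 127, 129 and 114 CPM with FLI. Each 4-cell library was far above each 2-cell library. The log2 fold change was 4.52 (SE 0.312 and adjusted p = 6.94e-10) in DMEM and 4.53 (SE 0.314 and adjusted p = 8.51e-10) in FLI embryos.

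FOXH1, the partner of SMAD2 in Nodal signalling, was almost without counts at the 2-cell stage and measurable in every later library. It lies on chromosome 4 (322838 to 324481, plus strand). The 2-cell libraries held 0, 0.384 and 0.856 CPM with DMEM and 0.286, 1.01 and 0 CPM with FLI. The 4-cell libraries held 19.5, 40.2 and 17.7 CPM with DMEM and 27.0, 30.2 and 20.8 CPM with FLI, so the stages did not overlap. Counted over the group, 316 counts stood against 8 in DMEM and 343 against 7 in FLI embryos, which are ratios of 53.5 (95% counting interval 26.8 to 125) and 54.0 (25.9 to 135). The fitted log2 fold changes were 5.72 (SE 0.709 and adjusted p = 1.61e-06) and 5.69 (SE 0.722 and adjusted p = 2.24e-06).

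FOXN2, a factor of the FOXN subfamily (chromosome 3, 92268787 to 92336857, minus strand), was already well expressed in 2-cell embryos, at 58.0, 66.8 and 63.2 CPM with DMEM and 53.6, 61.7 and 57.1 CPM with FLI. At the 4-cell stage it was 171, 150.1 and 196 CPM with DMEM and 148, 167 and 165 CPM with FLI, again with no overlap. Its log2 fold change was 1.46 (SE 0.195 and adjusted p = 4.21e-06) in DMEM and 1.47 (SE 0.196 and adjusted p = 3.97e-06) in FLI embryos.

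FOXE1, known for thyroid development, had no count in any of the 6 2-cell libraries. It had 25 counts over the 4-cell DMEM and 14 over the 4-cell FLI libraries. Set against the 3 counts that a group at 0 allows, its level was 11.3-fold in 4-cell DMEM and 5.15-fold in 4-cell FLI embryos. These ratios take the 4-cell counts as exact, so they are not full lower bounds. FOXE1 passed the filter on low counts through later libraries only, which favours a rise in this test. The adjusted p of the step, 0.0057 in DMEM and 0.0217 in FLI embryos, is therefore no separate support. The 8-cell groups held 17 and 23 counts. In the FLI embryos this call was lost without the 2-cell FLI library 2 or 3 or the 4-cell FLI library 1 or 2, with an adjusted p of 0.0503 to 0.0609, and it was 0.0526 with limma voom. With only the groups compared, FOXE1 did not pass the filter in either medium and was not tested.

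FOXR1, FOXK2 and FOXN3, which fell, were among the 4 highest forkhead genes of the 2-cell embryo per length. FOXR1, a small forkhead gene whose RNA is known to be supplied by the mother in zebrafish, lies on chromosome 9 (46208808 to 46220078, plus strand). It was 163, 197 and 153 CPM in the 2-cell DMEM and 189, 198 and 185 CPM in the 2-cell FLI libraries. At the 4-cell stage it was 60.2, 54.2 and 64.2 CPM with DMEM and 60.0, 70.7 and 83.0 CPM with FLI. No 4-cell library reached a 2-cell library. The log2 fold change was -1.52 (SE 0.401 and adjusted p = 0.00312) in DMEM and -1.42 (SE 0.400 and adjusted p = 0.00512) in FLI embryos.

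FOXK2, a repressor that binds the deubiquitinase BAP1, and FOXN3, a repressor linked to the cell cycle checkpoint, fell as well. FOXK2 (chromosome 12, 560852 to 615739, minus strand) was 403, 403 and 389.6 CPM in 2-cell DMEM and 348, 414 and 400.1 CPM in 2-cell FLI libraries. It was 213, 243 and 233 CPM in 4-cell DMEM and 223, 223 and 212 CPM in 4-cell FLI libraries. The stages were apart whatever the medium, and the log2 fold change was -0.80 (SE 0.209 and adjusted p = 0.003) in DMEM and -0.82 (SE 0.209 and adjusted p = 0.00247) in FLI embryos. FOXN3 (chromosome 7, 111039633 to 111451893, minus strand) was 124, 86.8 and 113 CPM in 2-cell DMEM and 116, 107 and 105 CPM in 2-cell FLI libraries. At the 4-cell stage it was 31.4, 37.2 and 48.4 CPM with DMEM and 37.2, 44.2 and 53.0 CPM with FLI. The fall was -1.47 (SE 0.285 and adjusted p = 0.000236) and -1.29 (SE 0.284 and adjusted p = 0.000773) on the log2 scale, and no library of the later stage overlapped with the earlier one.

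FOXC1, a factor of mesoderm and of the anterior eye, was low but fell in both media. Its levels were 9.95, 14.4 and 11.98 CPM in 2-cell DMEM and 20.3, 8.40 and 9.69 CPM in 2-cell FLI libraries, against 0.469, 4.33 and 0.709 CPM in 4-cell DMEM and 0.787, 3.98 and 3.24 CPM in 4-cell FLI libraries. The log2 fold change was -2.73 (SE 0.690 and adjusted p = 0.00232) and -2.26 (SE 0.666 and adjusted p = 0.00695). FOXC1 (chromosome 7, 837171 to 838805, plus strand) lies within the span of GMDS on the opposite strand. The libraries were stranded, but whether strand was used in counting is not given in the sources used here, so reads of the 2 genes may not be separated. Over the same step 7 of the 11 oocyte markers fell in DMEM and 8 of 11 in FLI embryos and none rose. Their median was -2.52 on the log2 scale in each medium. Of the tested markers of other cells, some moved over this step as well and others did not. GREM1, of cumulus cells, fell from means of 42.0 and 41.0 CPM in DMEM and FLI embryos to 5.63 and 3.36 CPM (adjusted p = 2.44e-05 and 3.56e-06). STAR, of steroid-producing cells, rose from 0.710 and 0.482 to 13.9 and 7.76 CPM (adjusted p = 7.79e-06 and 4.81e-05). CD74, of blood cells, rose from 0.0640 and 0.135 to 11.5 and 13.9 CPM (adjusted p = 1.69e-05 and 2.33e-05), and COL1A1, of fibroblasts, from 0.456 and 0.628 to 15.9 and 5.39 CPM (adjusted p = 1.03e-05 and 0.00169). Among the other tested markers, PTPRC, of blood cells, passed in neither medium (log2 fold change 1.39 in DMEM and 0.94 in FLI embryos). Nor did the fibroblast markers COL1A2 (-0.64 and -0.25) and PDGFRA (-0.86 and 1.14), or INHBA, of granulosa cells (-0.29 and -1.40). The part of the marker changes in those of the forkhead genes was not tested.

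**Figure D2:**
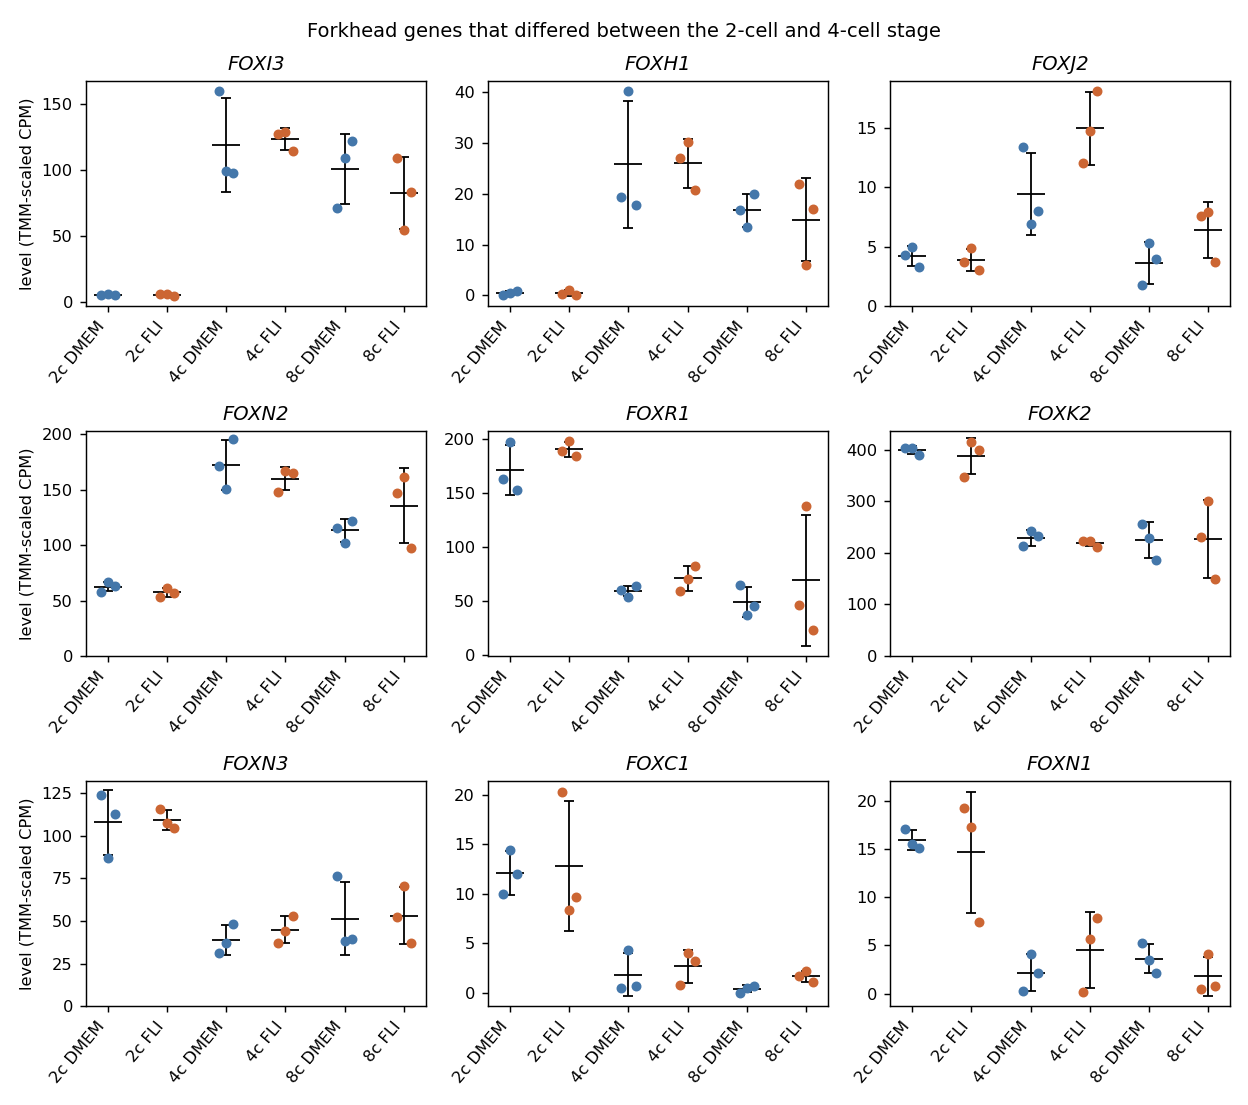
Levels of 9 forkhead genes that passed the test in at least 1 medium, in TMM-scaled CPM (vertical axes, from 0), in the 6 groups (2c, 4c and 8c stand for the 2-, 4- and 8-cell stage). Points are libraries, blue for DMEM and orange for FLI, and black bars are the mean ± SD of 3 libraries. FOXI3, FOXH1, FOXJ2 and FOXN2 are higher at the 4-cell than at the 2-cell stage and the other 5 are lower, and the 8-cell FLI points of FOXR1 spread from 23.6 to 138 CPM.

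FOXO1, an effector of insulin and IGF1 signalling on chromosome 11 (15317124 to 15410473, minus strand), was lower at the 4-cell stage in each medium and is described without a test, since its low level there was known when the genes were chosen. It was 84.2, 76.4 and 69.6 CPM in 2-cell DMEM and 92.8, 73.3 and 82.9 CPM in 2-cell FLI libraries, against 44.8, 49.9 and 34.2 CPM in 4-cell DMEM and 58.5, 38.4 and 26.2 CPM in 4-cell FLI libraries. Each 4-cell library was below each 2-cell library, and the log2 fold change was -0.84 in DMEM and -1.01 in FLI embryos.

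The remaining 5 genes called were low, or were called in 1 medium. FOXJ2, a widely expressed activator, rose from 3.28 to 4.99 CPM in 2-cell DMEM to 6.87 to 13.4 CPM in 4-cell DMEM libraries, and from 3.03 to 4.87 CPM to 12.01 to 18.1 CPM in FLI libraries. Its log2 fold change was 1.17 (SE 0.417 and adjusted p = 0.021) in DMEM and 1.93 (SE 0.423 and adjusted p = 0.000725) in FLI embryos. In DMEM it was lost without the 2-cell DMEM library 1 or 3, the 4-cell DMEM library 1 or the 4-cell FLI library 2, with an adjusted p of 0.0527 to 0.14, and without the filter on low counts (adjusted p = 0.0583). FOXJ3, an activator known from muscle and male germ cells, rose only slightly, by 0.59 (SE 0.172 and adjusted p = 0.00648) in DMEM, from 95.6 to 123 CPM to 158 to 176 CPM, and this was lost without the 2-cell DMEM library 1, the 4-cell DMEM library 2, the 4-cell FLI library 2 or the 8-cell DMEM library 2 (adjusted p of 0.0506 to 0.116) and without the filter (0.0612). FOXN1, the factor of the thymic epithelium and of hair, fell from 15.1 to 17.1 CPM to 0.234 to 4.07 CPM in DMEM (log2 fold change -2.89, SE 0.853 and adjusted p = 0.00682), while in FLI it was 7.47 to 19.2 CPM against 0.197 to 7.84 CPM (-1.71, SE 0.796 and adjusted p = 0.07).

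FOXD3, a factor of pluripotent cells and of the neural crest in mouse, passed in FLI embryos on 2 counts against 25, a ratio of 13.8 with a 95% counting interval of 3.44 to 120 (log2 fold change 3.52, SE 1.29 and adjusted p = 0.0246). In DMEM embryos it had 9 counts against 16. No 2-cell library held more than 5 counts of FOXD3, so it passed the filter through later libraries, which favours a rise. The call in FLI was lost without any 1 of the 2-cell FLI libraries or without the 4-cell FLI library 1, with an adjusted p of 0.0595 to 0.0932. FOXR2, a relative of FOXR1 on the X chromosome, fell in FLI embryos by 2.52 on the log2 scale (SE 1.01 and adjusted p = 0.0387), although its groups overlapped, at 0.573, 2.02 and 4.24 CPM against 0.591, 0 and 0.541 CPM. It was lost without any 1 of the 2-cell DMEM libraries, the 2-cell FLI library 2 or 3 or any 1 of the 4-cell FLI libraries, with an adjusted p of 0.0544 to 0.211, and without the filter (0.059). FOXR2 passed the filter without its 4-cell libraries, none of which held more than 8 counts, and this favours a fall.

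The lists of the media shared 6 of 7 genes that rose (85.7% of each list) and 5 of 6 that fell, FOXO1 included (83.3% of each). FOXJ3 and FOXN1 were called with DMEM alone, and FOXD3 and FOXR2 with FLI alone. The step itself was not shown to differ between the media for any of them, since in the test of the interaction 0 of 26 genes passed, 0 had an unadjusted p under 0.05, and the lowest adjusted p was 0.99992. Among all genes 0% passed and 2.56% had an unadjusted p under 0.05. FOXE1 is counted here but could not pass, since it had no count in either 2-cell group. The difference of the log2 fold changes, FLI less DMEM, was 2.41 (SE 1.70) for FOXD3, 1.18 (SE 1.15) for FOXN1, -0.27 (SE 0.242) for FOXJ3 and -0.59 (SE 1.30) for FOXR2.

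**Figure D3:**
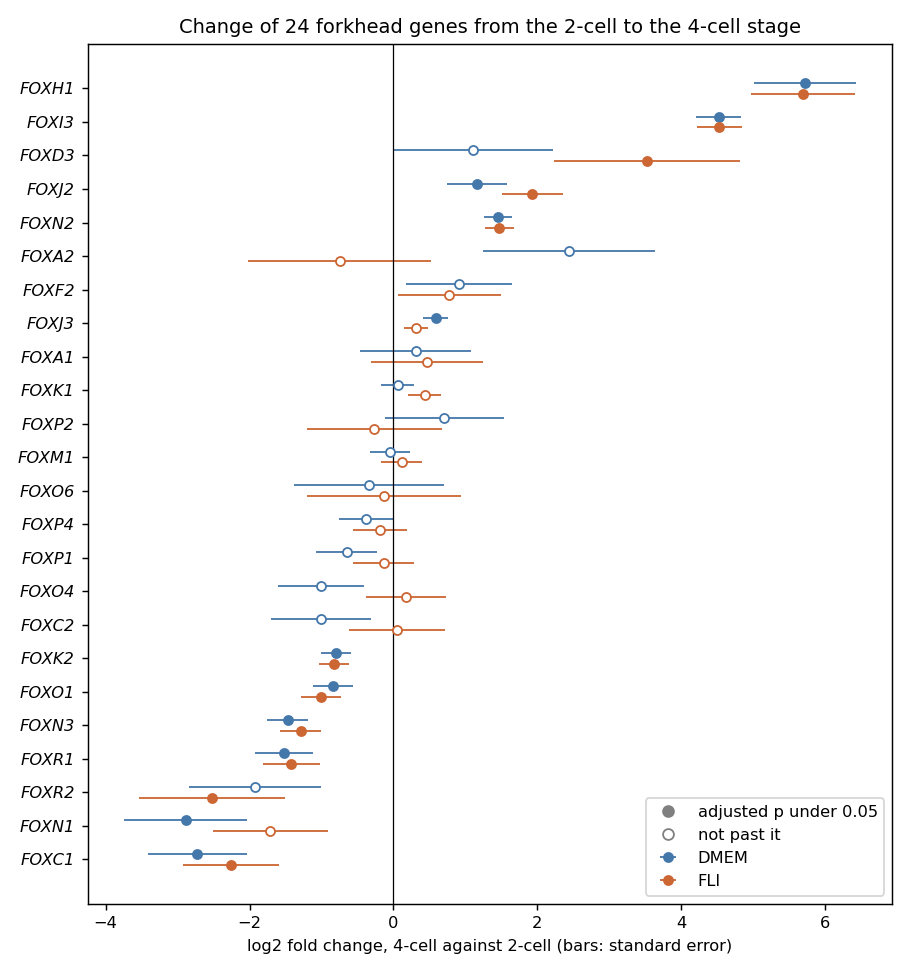
Log2 fold change of 24 forkhead genes, 4-cell against 2-cell (horizontal axis), with the standard error as bars, blue for DMEM and orange for FLI embryos, filled where the adjusted p was under 0.05. FOXE1 is left out because its 2-cell libraries were all at 0. FOXO1 is drawn like the others, although its low 4-cell level was known when the genes were chosen. FOXH1 (5.72 and 5.69) and FOXI3 (4.52 and 4.53) stand at the top with both media filled. Genes are ordered by the mean of the media, which puts FOXC1 (-2.73 and -2.26) at the bottom, although FOXN1 was lower in DMEM (-2.89) and FOXR2 in FLI embryos (-2.52), and wide bars belong to genes with few counts.

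The other 11 tested genes passed in neither medium. FOXM1, the activator of mitotic genes, was among the steadiest, at 131 to 159 CPM in 2-cell DMEM, 120.1 to 158 CPM in 2-cell FLI, 136 to 143 CPM in 4-cell DMEM and 117 to 178 CPM in 4-cell FLI libraries. Its log2 fold change was -0.05 (SE 0.280) in DMEM and 0.11 (SE 0.280) in FLI embryos. FOXM1 overlaps RHNO1 on the opposite strand and TEX52 on the same strand, so part of its counts may belong to these. FOXK1, a relative of FOXK2, changed by 0.06 (SE 0.230) with DMEM and 0.44 (SE 0.231) with FLI. FOXP1 and FOXP4, repressors of the FOXP subfamily, were at 79.3 ± 10.3 and 56.4 ± 8.24 CPM (SD, n = 3) in 2-cell DMEM embryos, and their log2 fold changes lay between -0.65 and -0.14 with an SE of 0.377 to 0.422. FOXP2, known for its part in speech and song, and FOXO6, a FOXO gene of the brain, stayed at means of 0.521 to 2.15 CPM in every group. FOXA1 and FOXA2, pioneer factors of endoderm, FOXC2 and FOXF2, factors of mesenchyme, and FOXO4 had means of 0.477 to 9.96 CPM. Their estimates carried standard errors of 0.554 to 1.27, and even changes larger than these errors could be missed at this depth. FOXA2 in DMEM embryos, at 2.44 (SE 1.19 and adjusted p = 0.081), did not pass.

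The neighbours of the forkhead factors in their pathways were described from 5 lists, to be read against the 35.2% of all genes that rose and 28.4% that fell in DMEM embryos and the 34.6% and 27.2% in FLI embryos. Of 35 tested regulators of FOXO factors, 14 rose and 5 fell in DMEM embryos (40% and 14.3%) and 14 rose and 7 fell in FLI embryos (40% and 20%), and the median was 0.18 and 0.26 on the log2 scale, beside 0.16 and 0.18 over all genes. The strongest were SGK1, a kinase that phosphorylates FOXO proteins (10.4, SE 0.568, with DMEM and 7.55, SE 0.464, with FLI), YWHAZ, a 14-3-3 protein that binds them (3.01, SE 0.182, and 2.60, SE 0.179), the acetyltransferase EP300 (2.98, SE 0.207, and 3.14, SE 0.209) and the ubiquitin ligase MDM2 (3.59, SE 0.349, and 3.63, SE 0.361). SGK1 was at 0.0721 ± 0.125 and 0.426 ± 0.370 CPM in 2-cell embryos and at 117 ± 33.2 and 95.0 ± 16.9 CPM in 4-cell embryos. YWHAZ went from 85.7 ± 7.57 to 689 ± 105 CPM with DMEM.

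Genes known as targets of FOXO factors moved both ways. Of 26 tested, 6 rose and 7 fell in DMEM (23.1% and 26.9%) and 7 rose and 8 fell in FLI embryos (26.9% and 30.8%), and the median was -0.52 and -0.63 on the log2 scale, beside 0.16 and 0.18 over all genes. CAT, which encodes catalase, fell by 2.52 (SE 0.365) and 2.53 (SE 0.365). PCK1, an enzyme of gluconeogenesis, rose by 7.34 (SE 0.528) and 8.30 (SE 0.591), from 0.336 ± 0.464 and 0.163 ± 0.147 CPM to 53.6 ± 5.91 and 53.2 ± 9.22 CPM. TRIB1, a pseudokinase, rose by 6.29 (SE 0.471) and 5.82 (SE 0.460), and MAP1LC3B, an autophagy gene, by 2.85 (SE 0.172) and 2.46 (SE 0.170).

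FOXM1 shares its targets with the MuvB complex, and of 31 tested genes of this group 13 rose and 10 fell with DMEM (41.9% and 32.3%) and 12 rose and 9 fell with FLI (38.7% and 29.0%), near the shares over all genes. The medians were 0.03 and 0.02, beside 0.16 and 0.18 over all genes. LIN9 and LIN54, subunits of MuvB, rose by 2.98 (SE 0.234) and 2.06 (SE 0.232) in DMEM and by 2.50 (SE 0.228) and 2.40 (SE 0.236) in FLI embryos. The cyclin-dependent kinase subunits CKS1B and CKS2 went in opposite directions, with CKS1B at -1.57 (SE 0.194) and -1.97 (SE 0.197) and CKS2 at 2.99 (SE 0.220) and 2.68 (SE 0.217) on the log2 scale.

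Around FOXH1, 17 genes of the Nodal pathway were tested, of which 7 rose and 6 fell with DMEM (41.2% and 35.3%) and 6 rose and 6 fell with FLI (35.3% each), with medians of -0.25 and -0.63 beside 0.16 and 0.18 over all genes. The homeobox gene GSC, known to be activated through FOXH1 and Nodal, was at 1.87 CPM in 2-cell DMEM and at 125 CPM in 4-cell DMEM embryos. Its log2 fold change was 5.97 (SE 0.371) with DMEM and 5.36 (SE 0.355) with FLI. TGIF1 and SKIL, which restrain SMAD proteins, rose by 7.77 (SE 0.616) and 4.90 (SE 0.262) with DMEM and by 6.75 (SE 0.591) and 4.56 (SE 0.263) with FLI. Of 25 tested partners of FOXK and FOXP factors, 10 rose and 8 fell with DMEM (40% and 32%) and 9 rose and 7 fell with FLI (36% and 28%), near the shares over all genes, with medians of 0.07 and 0.12. HDAC2 and MTA2, of the NuRD complex, rose by 2.04 (SE 0.187) and 6.61 (SE 0.398) with DMEM, and ASXL1 and ASXL2, which join BAP1, by 3.08 (SE 0.293) and 2.23 (SE 0.263). With FLI these 4 rose by 1.79 (SE 0.186), 6.94 (SE 0.416), 2.82 (SE 0.291) and 2.16 (SE 0.263). The adjusted p of the genes named from the lists was 1.58e-06 or lower, except for CAT, with 1.055e-05 in DMEM and 1.03e-05 in FLI embryos.

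From the 4-cell to the 8-cell stage no forkhead gene passed the test in either medium. In DMEM embryos 0% of all genes passed, and in FLI embryos 0.804% rose and 2.24% fell, 3.05% in either direction. FOXO1 is described without a test here, since its difference between these stages was known when the genes were chosen, and 25 genes were counted. At an unadjusted p under 0.05 there were 1 higher and 2 lower in DMEM, and 1 higher and 3 lower in FLI embryos, where 14.5% and 19.9% of all genes were past it. With DESeq2 FOXN2 fell in DMEM embryos (-0.57, SE 0.162 and adjusted p = 0.026) and FOXJ2 fell in FLI embryos (-1.16, SE 0.401 and adjusted p = 0.0445), where 2.21% and 5.34% of all genes fell.

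FOXN2 was 171, 150.1 and 196 CPM in 4-cell DMEM and 115, 102 and 122 CPM in 8-cell DMEM libraries, which did not overlap (log2 fold change -0.61, SE 0.193 and adjusted p = 0.179). In FLI embryos it was 148, 167 and 165 CPM and then 147, 162 and 97.3 CPM, which did. FOXJ2 was 13.4, 6.87 and 8.03 CPM in 4-cell DMEM and 1.74, 5.26 and 3.93 CPM in 8-cell DMEM libraries. In FLI it was 12.01, 14.7 and 18.1 CPM and then 7.61, 7.88 and 3.69 CPM. In each medium its 8-cell libraries lay below its 4-cell libraries, with log2 fold changes of -1.29 (SE 0.438 and adjusted p = 0.195) and -1.20 (SE 0.410 and adjusted p = 0.111). FOXI3 stayed high at 70.6, 109 and 121 CPM in 8-cell DMEM and 109, 54.6 and 82.9 CPM in 8-cell FLI libraries, against -0.24 (SE 0.260) and -0.59 (SE 0.261) as the log2 fold change from the 4-cell stage. FOXH1 was 16.8, 13.4 and 20 CPM in 8-cell DMEM and 21.9, 5.91 and 16.96 CPM in 8-cell FLI libraries, far above the 2-cell levels in all 6.

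The libraries that stood apart bear on these counts. They were picked after the data were seen. The 8-cell DMEM library 1 was the highest of its group for FOXP1 (96.7 CPM), FOXP4 (45.2 CPM) and FOXM1 (132 CPM). Leaving it out lowers the 8-cell mean of such genes by itself, so their falls below are no separate support. Without all 3 of them, 4 genes fell in DMEM embryos, namely FOXN2 (-0.63, SE 0.165), FOXM1 (-0.62, SE 0.185), FOXP4 (-0.99, SE 0.253) and FOXP1 (-0.83, SE 0.261), with an adjusted p of 0.0101 to 0.033, where 10% of all genes fell. In FLI embryos, where 1 8-cell library was then left and its spread was taken as that of the other groups, FOXK1 (-0.86, SE 0.275) and FOXP4 (-1.05, SE 0.327) fell, with an adjusted p of 0.049 and 0.0451, where 5.14% of all genes fell. Without the 8-cell FLI library 2 alone, 5 genes fell in FLI embryos, where 11.3% of all genes fell. Among them were FOXK1 (-0.86), FOXJ2 (-1.42), FOXP4 (-0.95) and FOXR1 (-1.06), with an adjusted p of 0.0137 to 0.0484. The 8-cell FLI library 2 was the highest of its group for each of these, with FOXK1 at 50.8 and FOXJ2 at 7.88 CPM. Leaving it out lowers their 8-cell mean by itself. These falls, and those of FOXK1 and FOXP4 without all 3 libraries, are therefore no separate support. That library held FOXR1 at 138 CPM, FOXP1 at 97.1 and FOXP4 at 73.9 CPM, the highest of the 8-cell libraries, together with the highest oocyte marker sum of that stage. The 8-cell DMEM library 1, with the next highest oocyte marker sum, had FOXP1 at 96.7 and FOXN3 at 76.4 CPM, while the 8-cell FLI library 3, with 349 CPM of oocyte markers, had FOXR1 at 23.6 CPM. The part of the oocyte transcripts in these levels was not tested.

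Among the tested genes of the 5 lists, a few passed from the 4-cell to the 8-cell stage in FLI embryos, where 3.05% of all genes passed. Of 35 FOXO regulators 1 rose and 1 fell, and of 26 FOXO targets 1 rose. In the FOXM1 list 1 of 31 fell, in the FOXH1 list 1 of 17, and in the FOXK and FOXP list 1 of 25. The genes named here were picked after their values were seen. SGK3, a kinase related to AKT, rose by 1.08 (SE 0.264 and adjusted p = 0.0363), and PIK3R1, a regulatory subunit of the PI3 kinase, fell by 0.97 (SE 0.206 and adjusted p = 0.0242). CITED2, a FOXO target, rose from 0.0656 ± 0.114 to 15.7 ± 15.9 CPM (SD, n = 3). CDC20 fell by 0.67 (SE 0.170) and the NuRD gene GATAD2A by 0.83 (SE 0.206). In DMEM embryos none of the list genes passed, as no gene did. An unadjusted p under 0.05 was seen for 5 of 35 FOXO regulators, 6 of 26 FOXO targets and 4 of 31 genes around FOXM1. It was also seen for 2 of 17 around FOXH1 and 4 of 25 FOXK and FOXP partners, beside 14.5% of all genes.

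The FOXO genes are described over all 3 stages, although the 8-cell was not tested against the 2-cell stage. FOXO1 was 73.5, 105 and 102 CPM in 8-cell DMEM and 97.0, 53.0 and 71.1 CPM in 8-cell FLI libraries. Over both media its mean was 79.9 CPM at the 2-cell, 42.0 at the 4-cell and 83.7 at the 8-cell stage. The 8-cell DMEM libraries were all above the 4-cell DMEM libraries, by a log2 fold change of 1.13, and the FLI libraries overlapped, with 0.84. FOXO4, another FOXO gene, on the X chromosome (57132548 to 57140356, plus strand), was 0.234, 3.31 and 2.83 CPM in 4-cell DMEM and 6.95, 8.11 and 6.43 CPM in 8-cell DMEM libraries, which did not overlap (1.75, SE 0.606 and adjusted p = 0.198). In FLI embryos it was 9.25, 6.08 and 2.16 CPM and then 13.01, 7.29 and 9.58 CPM. Its mean had been 4.27 CPM in 2-cell DMEM against 2.13 CPM in 4-cell DMEM and 5.23 against 5.83 CPM in FLI embryos, neither past the test. FOXO3, outside the name rule, was in DMEM and FLI embryos 61.2 ± 8.00 and 51.5 ± 13.8 CPM at the 2-cell stage, 43.9 ± 8.97 and 32.3 ± 3.40 CPM at the 4-cell stage, and 32.2 ± 2.28 and 43.5 ± 15.4 CPM at the 8-cell stage. It fell from the 2-cell to the 4-cell stage in FLI embryos (-0.67, SE 0.263 and adjusted p = 0.0351), and in DMEM embryos the change was -0.48 (SE 0.260 and adjusted p = 0.116).

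**Figure D4:**
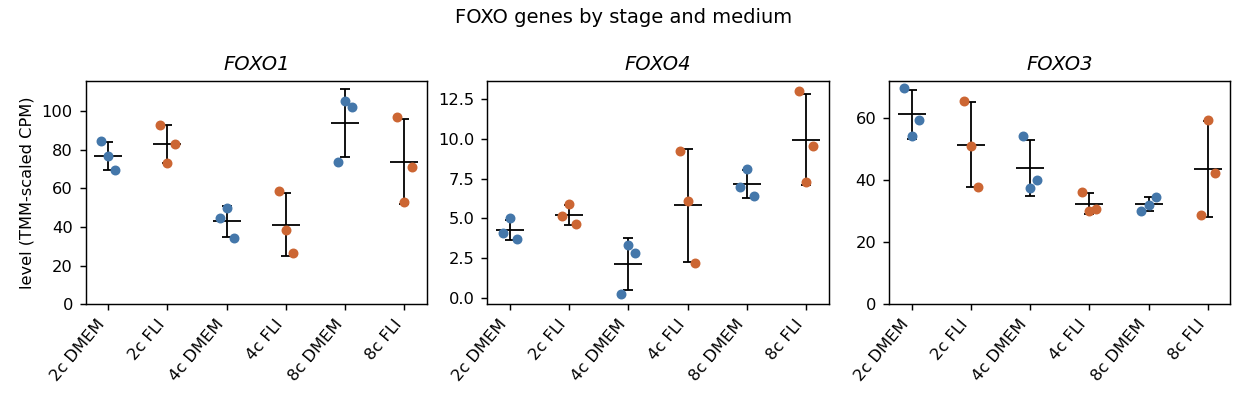
Levels of FOXO1, FOXO4 and FOXO3 in TMM-scaled CPM (vertical axes, from 0) in the 6 groups, with libraries as points, blue for DMEM and orange for FLI, and the mean ± SD of 3 libraries in black. FOXO1 is lower at the 4-cell stage (26.2 to 58.5 CPM) than in most 2-cell and 8-cell libraries, and FOXO4 stays at or under 13.01 CPM.

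The maturation medium was compared at each stage, the question of the study, and no forkhead gene passed the test. At the 2-cell, 4-cell and 8-cell stage and over the 3 stages together, 0 of 26 genes passed with edgeR, DESeq2 or limma voom, where 0% of all genes passed with edgeR. FOXE1, without a count at the 2-cell stage, could not pass there. The number with an unadjusted p under 0.05 was 0 at the 2-cell, 1 at the 4-cell and 0 at the 8-cell stage, and 1 over the stages, where 2.15%, 2.31%, 7.85% and 4.55% of all genes were past it. That gene was FOXO4 both times, with a log2 fold change, FLI against DMEM, of 1.47 (SE 0.597 and adjusted p = 0.99985) at the 4-cell stage and 0.71 (SE 0.332 and adjusted p = 0.999) over the stages. Its 4-cell groups overlapped. For the 11 genes with a mean of at least 20 CPM the estimates lay between -0.26 and 0.15 at the 2-cell and -0.18 and 0.36 at the 4-cell stage. At the 8-cell stage they lay between -0.35 and 0.51, and the standard errors over the stages were 0.171 to 0.429. At the 4-cell stage the largest of these estimates was FOXP1 with 0.36 (SE 0.422), and the lowest was FOXJ3 with -0.18 (SE 0.171). Differences within these errors, and some that exceed them, could not be detected with 3 libraries a group. The interaction of medium with the step from the 4-cell to the 8-cell stage passed for 0 of 26 genes, where 0% of all genes passed, and 1 gene, FOXA2, had an unadjusted p under 0.05 on low counts, beside 3.07% of all genes.

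**Figure D5:**
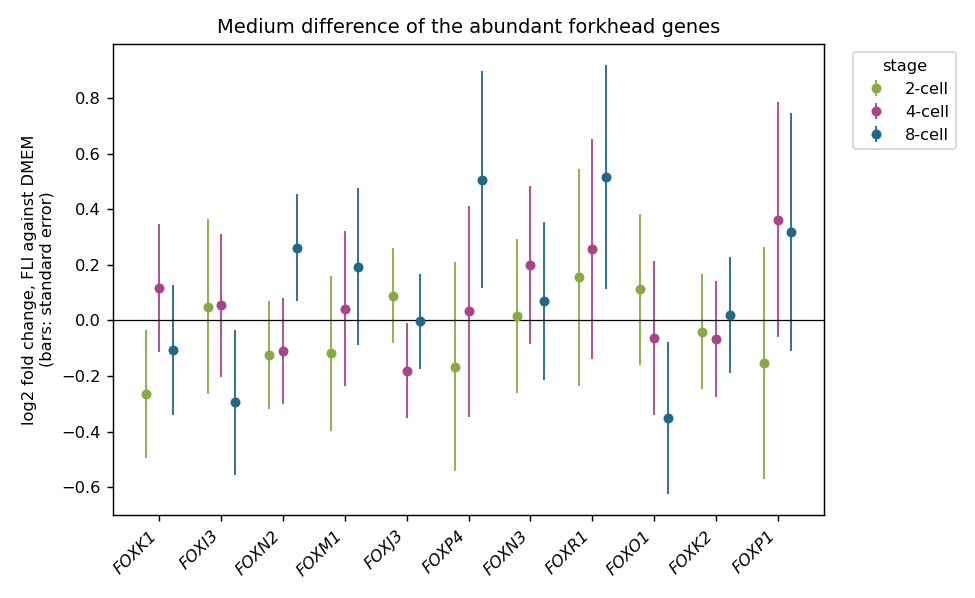
Log2 fold change of FLI against DMEM (vertical axis) for the 11 forkhead genes with a mean of at least 20 CPM, at the 2-cell (green), 4-cell (purple) and 8-cell (blue) stage, with the standard error as bars. Points lie between -0.35 and 0.51, and none passed the test.

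The study also set 4-cell FLI embryos against 8-cell DMEM embryos, a comparison in which stage and medium change together and cannot be told apart. It shares its libraries with the comparisons above. None of the 25 genes counted passed, where 0% of all genes passed, and 4 had a higher level in 4-cell FLI embryos at an unadjusted p under 0.05, as did 8.68% of all genes. FOXJ2 was 12.01, 14.7 and 18.1 CPM in 4-cell FLI and 1.74, 5.26 and 3.93 CPM in 8-cell DMEM libraries (1.95, SE 0.437 and adjusted p = 0.0876). FOXC1 (2.52, SE 0.935) and FOXN2 (0.50, SE 0.193) were also among them, and the groups of these genes did not overlap. FOXO1, described without a test, was at -1.19 on the log2 scale. FOXJ2 passed with DESeq2 (1.85, SE 0.441 and adjusted p = 0.00454, where 2.09% of all genes were higher), without the 8-cell FLI library 2 (adjusted p = 0.0159) and without the 8-cell FLI library 3 (adjusted p = 0.0493), which enter this comparison only through the shared estimate of the spread. Without the 3 libraries that stood apart, 8 genes were higher in 4-cell FLI embryos, where 10.8% of all genes were higher. Among them were FOXJ2 (1.68), FOXP1 (1.20), FOXP4 (1.02), FOXR1 (0.79), FOXK1 (0.67), FOXM1 (0.66) and FOXN2 (0.53), with an adjusted p of 0.00253 to 0.0303. The 8-cell DMEM library 1, left out here, was the highest of its group for FOXP1, FOXP4, FOXR1, FOXM1 and FOXK1. Leaving it out lowers their 8-cell mean by itself, so these calls are no separate support.

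The 14 genes that did not pass the filter had totals of 0 to 76 counts over all 18 libraries and no more than 18 in any library. They were mostly factors of later tissues. FOXL3 had no count at all. FOXL1, of gut mesenchyme, had 2 counts, FOXI2 5, FOXQ1 8, FOXD1, of the kidney stroma, 10, FOXP3, of regulatory T cells, 12 and FOXB1, of the diencephalon, 14. FOXE3, of the lens, had 20, with 12 of them in the 4-cell DMEM library 1, and FOXI1, of the inner ear and kidney, 24. FOXA3, of liver, had 37, FOXF1, of lung mesenchyme, 43, FOXS1 48, FOXD2 65 and FOXJ1, the factor of motile cilia, 76. For FOXA3, FOXQ1 and FOXP3 an overlapping gene may have added to these counts.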

How the data were processed

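RNA of 18 pools of parthenogenetic embryos was sequenced as stranded libraries. By the paper, reads were mapped with bowtie2 and expression was calculated with Dragen, in versions not given in the sources used here. Per the submitters' notes the build is Sscrofa11.1. The authors deposited a total count per gene and library, which served for all tests and levels. The deposited TPM were used to compare genes per length. The deposited RPKM were used only to infer the mapped reads of a library. The 18 deposited columns named CPM, a score whose sums differ between libraries, were not used.

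Counts were analysed with edgeR 4.0.16 (limma 3.58.1, R 4.3.3), with filterByExpr (13187 genes kept, minimum count 10, total 15), TMM, 1 model of 6 group means, and the quasi-likelihood test with Benjamini-Hochberg adjustment over all genes. A model of stage and medium gave the comparison over the 3 stages. The standard error is the log2 fold change divided by the root of F. The script was tested on simulated data. Python 3.11.15 and pandas 2.3.3 were used for tables. Depth was 1737985 to 6781185 counts; intervals and floors cover counting error only.

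Samples were grouped by the labels. Every forkhead gene kept was named, except that results for 2 genes, of those the rules name, are not reported here, and from each list up to 4 genes with the smallest p from the 2-cell to the 4-cell stage in FLI embryos. The forkhead genes, lists and tests were chosen with earlier results of these data known. Alternatives were DESeq2 1.42.0, limma voom, other scalings, no filter, only the groups compared, a replicate block, a robust fit, no libraries that stood apart, and each library left out. Of the 40 genes, 39 matched a RefSeq symbol. No sequences were used.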

Additional observations from a re-analysis of the deposited data

How the results depend on the processing

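From the 2-cell to the 4-cell stage 26 changes of single forkhead genes were called, and over all alternatives they gave 724 values, of which 695 kept their direction and their side of the threshold, 29 kept the direction but missed the threshold and 0 reversed. Those that missed it belonged to FOXE1, FOXD3 and FOXR2 in FLI embryos and FOXJ2, FOXJ3 and FOXO1 in DMEM embryos. With only the groups compared, 22 of the 26 changes gave a value, and these kept their call. The rest, FOXE1 in each medium and FOXD3 and FOXR2 in FLI embryos, did not pass the filter there and are not among the 724 values. The 26 include FOXO1 in each medium. Its low 4-cell level was known when the genes were chosen, so its values add no support. Leaving out each library gave 5 to 7 genes that rose and 6 that fell with DMEM, and 5 to 7 that rose and 5 to 7 that fell with FLI. The other alternatives gave 5 to 7 that rose and 6 to 9 that fell with DMEM, with 9 reached without the 3 libraries that stood apart, and 6 to 9 that rose and 6 to 7 that fell with FLI, with 9 reached with DESeq2. From the 4-cell to the 8-cell stage 0 genes fell in DMEM embryos, but 1 with DESeq2 and 4 without the 3 libraries that stood apart. In FLI embryos 0 fell, but 1 with DESeq2, 2 without those 3, and 0 to 5 when each library was left out, with 5 reached without the 8-cell FLI library 2. In 4-cell FLI against 8-cell DMEM embryos 0 were higher, but 1 with DESeq2, 8 without those 3, and 0 to 1 when each library was left out. All other counts of forkhead genes between groups stayed at 0 under every alternative.

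Scaling moved the median of all genes. From the 2-cell to the 4-cell stage in DMEM embryos it was 0.16 with TMM, 0.21 with DESeq2 and -0.01 with library size only, and from the 4-cell to the 8-cell stage in FLI embryos 0.03 with TMM, 0.19 with library size only and 0.22 with upper quartile scaling. No called forkhead gene changed direction under these scalings. Across all genes, 0 fell and 0 rose from the 4-cell to the 8-cell stage in DMEM embryos with edgeR, and 292 fell and 152 rose with DESeq2.

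Replicate numbers are shared between groups, but in 0 of 15 pairs of groups were all 3 correlations of same-numbered libraries over 0.1, so the numbers were not taken as pairs. With a replicate block 7 forkhead genes rose and 7 fell with DMEM, and 7 rose and 6 fell with FLI, and no other comparison had a call.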
